A study of Homo sapiens with 8 samples.

Results

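Integrins are paired surface receptors, made of 1 alpha and 1 beta subunit, with which white blood cells hold on to other cells and to the matrix. The 10 genes described here were chosen by symbol and comprise 5 alpha subunits, 3 beta subunits and 2 ligands. The alpha subunits were ITGAL, ITGA4, ITGA5, ITGA6 and ITGAE, the beta subunits were ITGB2, ITGB1 and ITGB7, and the ligands were ICAM2 and ICAM3. Each of the 10 symbols matched 1 of the 63677 gene identifiers in the count tables. All 10 passed the filter on low counts in both lines.

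RNA was measured in DND-41 and MOLT-4, 2 established human lines of T-cell acute lymphoblastic leukaemia. In each line 2 libraries came from cells given 100 nM ACBI-1 and 2 from cells given DMSO, the solvent, and RNA was taken at 8 h. ACBI-1 is a degrader that brings the bromodomain proteins SMARCA2, SMARCA4 and PBRM1, parts of the BAF and PBAF chromatin remodelling complexes, to the VHL ubiquitin ligase. It acts on protein, so RNA does not check whether its targets were lost. All groups grew in the same serum-supplemented medium, and each line stands for 1 leukaemia. Whether the 2 libraries of a group came from separate cultures is not in the labels, so the p-values reflect the spread of these libraries alone.

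The alpha L subunit (ITGAL) pairs with beta 2 (ITGB2) to form LFA-1, the main receptor with which T cells grip ICAM-1, ICAM-2 and ICAM-3 on other cells. Alpha 4 (ITGA4) pairs with beta 1 (ITGB1) to form VLA-4, a receptor for VCAM-1 and fibronectin, or with beta 7 (ITGB7) to form the gut-homing receptor for MAdCAM-1. Beta 1 also pairs with alpha 5 (ITGA5), a fibronectin receptor, and with alpha 6 (ITGA6), a laminin receptor. Alpha E (ITGAE, CD103) pairs with beta 7 and holds T cells to E-cadherin on epithelium. An alpha subunit reaches the surface only with a beta partner, and most integrins bind firmly only once talin and kindlin have opened them from inside the cell.

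Each library held between 19860759 and 20239888 counts, and levels are counts scaled to effective library size (CPM), where 3 counts amount to 0.137 to 0.165. The 6 T-cell markers together held 4270 to 5010 CPM in DND-41 and 2100 to 2270 CPM in MOLT-4, with CD3E at 1242 to 2185 CPM in every library, although CD5 stayed at or below 2.13 CPM in DND-41. Within this list ACBI-1 moved genes both ways: in DND-41 CD3D, CD3E and CD3G rose and CD2, CD5 and CD7 fell, and in MOLT-4 CD3G rose and CD2, CD5 and CD7 fell. The platelet markers PF4, PPBP and GP9 and the B-lineage markers MS4A1 and PAX5 were at 0 in all 8 libraries, and the 5 myeloid markers summed to at most 0.547 CPM. The sum of the 4 B-lineage markers was 2.17 to 2.28 CPM in untreated and 0.574 to 0.64 CPM in treated DND-41 cells, and 1.09 to 1.1 CPM in untreated and 0.22 to 0.476 CPM in treated MOLT-4 cells. The 4 stromal and epithelial markers summed in DND-41 to 50.2 to 52.6 CPM untreated and 8.09 to 11.1 CPM treated, nearly all of it PDGFRB. In MOLT-4 they summed to 4.3 to 59.7 CPM with DMSO and 0.741 to 12.9 CPM with ACBI-1, and both replicate 2 libraries stood apart. COL1A1 was at 55.4 CPM in DMSO replicate 2 and 11.4 CPM in ACBI-1 replicate 2 of MOLT-4, against 2.20 and 0 CPM in replicate 1. EPCAM was at 0 throughout. Some MOLT-4 results are therefore also given without both replicate 2 libraries, in a joint fit with the DND-41 libraries, an alternative chosen after seeing the data. In bulk RNA, fewer cells with a transcript and less of it per cell cannot be told apart.

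Promoter sequences from RefSeq (GRCh38.p14) were listed for 7 of the 10 genes, and 2 are shown, ITGA4 as the alpha subunit of 2 receptors here and ITGA6 as the listed gene that fell at least 2-fold in both lines. Each is the 250 bases before the start of transcription, 5′ to 3′ on the gene's strand, ending at position -1. Capitals mark matches, on either strand, to the cores TGTGGT (RUNX), CCGGAA (ETS), CAGCTG and CACCTG (E-boxes) and TATAAA. The ITGA4 window is chr2:181457136-181457385 and the ITGA6 window, at the first of 2 listed starts, is chr2:172427086-172427335, both on the plus strand.
ITGA4: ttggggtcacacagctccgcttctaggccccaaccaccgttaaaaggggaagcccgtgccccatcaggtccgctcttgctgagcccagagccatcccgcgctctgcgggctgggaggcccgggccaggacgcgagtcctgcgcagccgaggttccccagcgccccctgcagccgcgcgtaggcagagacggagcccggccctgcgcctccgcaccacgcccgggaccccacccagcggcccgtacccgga
ITGA6: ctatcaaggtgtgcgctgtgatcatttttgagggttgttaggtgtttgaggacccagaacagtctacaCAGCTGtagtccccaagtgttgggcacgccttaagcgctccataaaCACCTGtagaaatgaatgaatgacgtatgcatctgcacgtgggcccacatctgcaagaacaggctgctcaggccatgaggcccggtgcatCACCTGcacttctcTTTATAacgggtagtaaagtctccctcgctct
The ITGA4 window was 72.8% G or C and held none of the 5 cores. The ITGA6 window was 50.8% G or C and held CAGCTG at positions -182 to -177, CACCTG at -136 to -131 and again at -46 to -41, and TATAAA on the opposite strand at -32 to -27, with no overlap between matches. The window before its second start, not printed since it lies after the first start, held TGTGGT at -237 to -232 and CCGGAA at -158 to -153, both on the opposite strand, and CAGCTG at -140 to -135. Of 35116 RefSeq windows of this length, 10.98% held TGTGGT, 14.53% CCGGAA, 13.99% CAGCTG, 17.49% CACCTG and 10.72% TATAAA. A match describes letters only.

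In untreated cells the first question was which of these receptors each line transcribes. Levels were compared between genes as CPM per kilobase of exon, with all annotated exons of a gene joined. An error in this length is shared by all libraries, so overlap between libraries does not measure it. In DND-41 with DMSO, ITGB2 was highest at 27.7, followed by ICAM3 at 22.6, ITGA4 at 14.7, ITGB1 at 11.05 and ITGA5 at 7.13 CPM per kilobase. ITGAE at 4.48, ICAM2 at 3.25, ITGAL at 2.10, ITGA6 at 0.810 and ITGB7 at 0.427 CPM per kilobase closed the order, and no neighbours in it overlapped between libraries. In MOLT-4 with DMSO, ITGA4 led at 65.5 CPM per kilobase, ahead of ITGB2 at 44.7. ICAM3 at 26.5 and ITGAL at 26.2 CPM per kilobase came next and overlapped between libraries. Below them stood ITGA5 at 12.7, ITGB1 at 11.6, ICAM2 at 9.21, ITGAE at 5.54, ITGA6 at 1.78 and ITGB7 at 0.521 CPM per kilobase, without overlap between neighbours. The lines thus shared the lowest gene, ITGB7, and differed most in where ITGAL stood.

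Between the untreated lines, 8 of the 10 genes were higher in MOLT-4 and 0 lower, where 33.2% of all 15498 genes tested were called higher and 30.7% lower. ITGAL had the largest difference of the 10, at 169 and 170 CPM in MOLT-4 against 13.9 and 13.3 CPM in DND-41, a log2 difference of 3.64 ± 0.08 (SE; edgeR adjusted p = 4.84e-18), or 12.4-fold. ITGA4 was 4.46-fold higher (log2 difference 2.16 ± 0.07, adjusted p = 1.11e-15) and ICAM2 2.84-fold (1.50 ± 0.11, adjusted p = 3.44e-10). ITGA6, ITGA5 and ITGB2 were higher by 1.14 ± 0.15, 0.84 ± 0.06 and 0.69 ± 0.05 on the log2 scale. ITGAE and ICAM3 differed by 0.31 ± 0.07 and 0.23 ± 0.06, and both calls were lost with library size as the only scaling (adjusted p = 0.0573 and 0.143), which moves the median of all genes by -0.10. ITGB1 and ITGB7 did not pass (adjusted p = 0.291 and 0.362), with intervals of the log2 difference from -0.05 to 0.19 and from -0.28 to 0.86. The shared beta 1 subunit was therefore at 66.2 to 71.2 CPM in the untreated libraries of both lines, while each of its 3 alpha partners among the 10 was higher in MOLT-4. ITGA1, another partner of beta 1, was at 60.2 and 54.6 CPM in untreated DND-41 and 11.1 and 12.02 CPM in untreated MOLT-4.

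**Figure D1:**
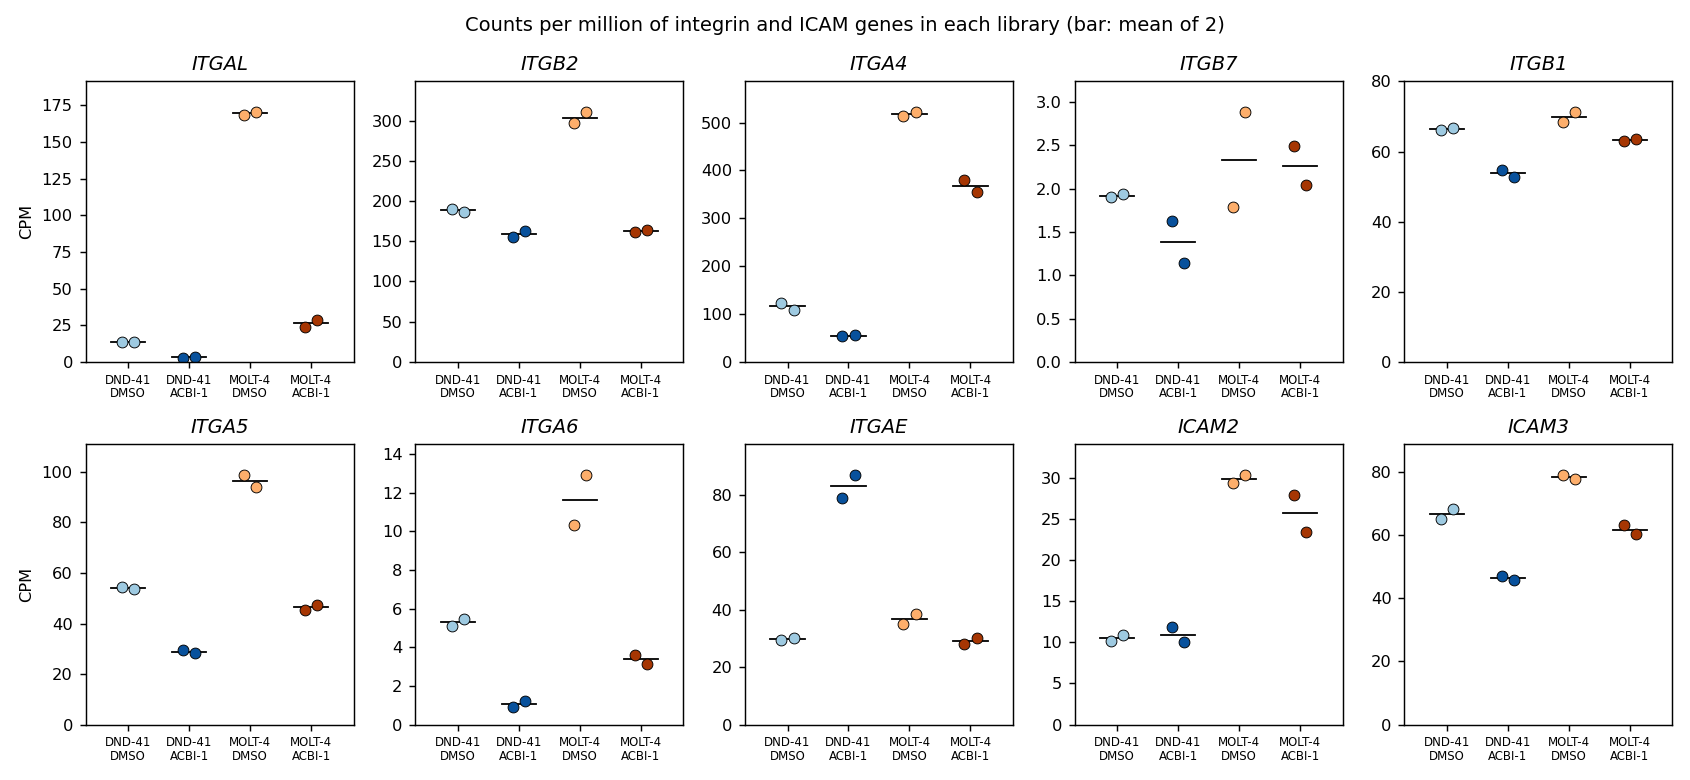
CPM of each gene in each of the 8 libraries, by line and treatment, with 1 panel per gene, its own vertical axis starting at 0, points for libraries and a bar for the mean of 2. ITGAL falls from 169 and 170 to 24.1 and 28.6 CPM in MOLT-4, and ITGAE goes from 29.6 and 30.1 to 79.0 and 87.0 CPM in DND-41.

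The next comparison asked what ACBI-1 did in each line. In DND-41, 7 of the 10 genes fell, 1 rose and 2 did not pass, where 23.2% of all 14008 genes tested fell and 20.0% rose. The median log2 fold change of the 10 was -0.49, against 0.01 over all genes tested. In MOLT-4, 8 of the 10 fell, 0 rose and 2 did not pass, where 24.4% of all 14239 genes fell and 20.7% rose, and the median was -0.42, against 0.00 over all genes. Falls of at least 2-fold were called for 3 of the 10 in DND-41 (ITGAL, ITGA4 and ITGA6), where 6.41% of all genes had one. They were called for 3 of the 10 in MOLT-4 (ITGAL, ITGA5 and ITGA6), where 8.43% of all genes had one. In the fit without both MOLT-4 replicate 2 libraries, log2 fold changes in MOLT-4 were -0.89 for ITGB2, -0.44 for ITGA4 and -1.13 for ITGA5. They were -1.53 for ITGA6, -0.33 for ITGAE and -0.34 for ICAM3. Without both MOLT-4 replicate 2 libraries 7 of the 10 fell in MOLT-4 and 0 rose, where 2232 of all 15965 genes tested fell and 1357 rose.

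Within LFA-1 the alpha subunit fell far more than the beta subunit. In DND-41, ITGAL (ENSG00000005844) was at 13.9 and 13.3 CPM with DMSO and 2.92 and 3.15 CPM with ACBI-1. This was a fall to 0.226 of the control level, a log2 fold change of -2.15 ± 0.14 (adjusted p = 1.5e-08). In MOLT-4 it went from 169 and 170 to 24.1 and 28.6 CPM, to 0.155 of the control level (log2 fold change -2.69 ± 0.07, adjusted p = 2.4e-16). Treated and untreated libraries did not overlap in either line, and treated MOLT-4 cells still held more ITGAL transcript than untreated DND-41 cells. The log2 fold change in MOLT-4 was -2.82 without both replicate 2 libraries.

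ITGB2 (ENSG00000160255), the beta subunit that LFA-1 shares with the myeloid integrins, was in DND-41 at 190 and 187 CPM untreated and at 156 and 163 CPM treated. The fall was small, -0.23 ± 0.06 on the log2 scale (adjusted p = 0.00545), and it was no longer called when DMSO replicate 1 or 2 was left out (adjusted p = 0.0966 and 0.0572). In MOLT-4 it fell from 297 and 310 to 162 and 165 CPM, a log2 fold change of -0.90 ± 0.05 (adjusted p = 6.51e-11). With ACBI-1 the 2 lines thus held ITGB2 at nearly one level, between 156 and 165 CPM in all 4 treated libraries. An antisense gene, ITGB2-AS1, shares 303 of the 6797 exon bases of ITGB2 and also fell, with log2 fold changes of -1.75 in DND-41 and -2.61 in MOLT-4 (adjusted p = 9.47e-06 and 5.71e-12). It held at most 18.1 CPM, and its part in the ITGB2 counts was not tested, since no source used here gives the strand setting of the counting.

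Per exon length, ITGAL transcript stood at 0.0769 and 0.0751 of the ITGB2 level in untreated DND-41 libraries and at 0.0197 and 0.0203 in treated ones. In MOLT-4 the ratio was 0.597 and 0.576 without and 0.156 and 0.182 with ACBI-1. ITGAL was thus the scarcer LFA-1 transcript in every library, and more so with ACBI-1. No test was run on ratios.

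Both ligands of LFA-1 among the 10 moved less than ITGAL. ICAM3 (ENSG00000076662), the ICAM that resting lymphocytes carry themselves, fell from 65.2 and 68.4 to 46.9 and 45.6 CPM in DND-41 (-0.52 ± 0.06 on the log2 scale, adjusted p = 1.59e-05). In MOLT-4 it fell from 79.0 and 77.6 to 63.0 and 60.2 CPM (-0.35 ± 0.06, adjusted p = 8.7e-05). ICAM2 (ENSG00000108622), best known on endothelium but also carried by lymphocytes, showed no call in DND-41, at 10.2 and 10.9 CPM with DMSO and 11.9 and 10.0 CPM with ACBI-1. Its log2 fold change there was 0.07 ± 0.12 (adjusted p = 0.696; 95% interval -0.19 to 0.32). In MOLT-4 it was at 29.4 and 30.4 CPM with DMSO and 27.9 and 23.5 CPM with ACBI-1 and was called lower by a narrow margin (-0.22 ± 0.08, adjusted p = 0.0371). That call was lost without either replicate 2 library. Without ACBI-1 replicate 2 the log2 fold change was -0.10 (adjusted p = 0.484), and it was also lost with DESeq2 (adjusted p = 0.294). Both ligand genes share exon bases with genes on the opposite strand, 869 of 3243 for ICAM2 (with PRR29, carried as C17orf72) and 2101 of 2950 for ICAM3 (with an antisense gene not analysed here). C17orf72 held 56 to 141 counts a library and was called in neither line (adjusted p = 0.576 and 0.694), and the part of these bases in the ligand counts was not tested.
ICAM1, the inducible and strongest ligand of LFA-1, is not among the 10 and is named after its values were seen. Its counts were 67 and 92 with DMSO against 32 and 19 with ACBI-1 in DND-41, and 14 and 10 against 0 and 0 in MOLT-4. In DND-41 it fell by 1.66 ± 0.28 on the log2 scale (adjusted p = 0.000275). In MOLT-4 its mean was at least 3.80-fold lower, with the treated level set at 3 counts per library, and these few counts are all that the value rests on.

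ITGA4 (ENSG00000115232), the alpha subunit of VLA-4 and of the gut-homing receptor, fell in both lines. In DND-41 it was at 124 and 108 CPM with DMSO and 54.5 and 55.2 CPM with ACBI-1, a log2 fold change of -1.07 ± 0.07 (adjusted p = 2.6e-08). In MOLT-4 it went from 513 and 522 to 380 and 354 CPM (-0.50 ± 0.06, adjusted p = 9.11e-07). Treated MOLT-4 cells kept ITGA4 above every DND-41 library, and it stayed the highest of the 10 per exon length in MOLT-4, at 46.5 CPM per kilobase.

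Of the beta subunits that ITGA4 uses, ITGB1 (ENSG00000150093) moved little. In DND-41 it fell from 66.2 and 66.6 to 54.6 and 52.9 CPM (-0.29 ± 0.06, adjusted p = 0.00179). In MOLT-4 it was at 68.3 and 71.2 CPM with DMSO and 63.1 and 63.7 CPM with ACBI-1, a log2 fold change of -0.14 ± 0.06 that did not pass (adjusted p = 0.0657; 95% interval -0.27 to -0.01). ITGB7 (ENSG00000139626) had 25 to 58 counts a library, between 1.14 and 2.88 CPM, and did not pass in either line. Its 95% intervals were wide, from -1.05 to 0.14 in DND-41 and from -0.62 to 0.51 in MOLT-4 on the log2 scale. Changes within them were not excluded at this depth. Moreover, 1886 of its 4481 exon bases lie opposite exons of ZNF740, which had 933 to 1233 counts a library, so the ITGB7 level itself is uncertain.

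ITGA5 (ENSG00000161638), the alpha subunit of the classical fibronectin receptor, fell by a similar amount in both lines. It went from 54.5 and 53.5 to 29.3 and 28.2 CPM in DND-41 (-0.90 ± 0.07, adjusted p = 9.57e-08) and from 98.8 and 94.1 to 45.5 and 47.2 CPM in MOLT-4 (-1.06 ± 0.06, adjusted p = 3.49e-11). ITGA6 (ENSG00000091409), the laminin-binding subunit, was among the lowest of the 10 and fell by more. In DND-41 it was at 5.12 and 5.46 CPM with DMSO and 0.909 and 1.23 CPM with ACBI-1, that is 108 and 113 against 19 and 27 counts (-2.28 ± 0.23, adjusted p = 1.68e-06). In MOLT-4 it went from 10.3 and 12.9 to 3.60 and 3.14 CPM (-1.79 ± 0.16, adjusted p = 1.36e-08). No treated library of either gene overlapped an untreated one of its line.

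Against this small movement of ITGB1, the ratios of ITGA4, ITGA5 and ITGA6 to ITGB1 transcript per exon length were each lower with ACBI-1 in every library of both lines. The mean ITGA5 to ITGB1 ratio was 0.645 untreated and 0.424 treated in DND-41, and 1.1 and 0.58 in MOLT-4. The mean ITGA6 to ITGB1 ratio was 0.0733 and 0.0184 in DND-41, and 0.153 and 0.0489 in MOLT-4. ITGA4 was the 1 of these 3 alpha subunits whose level per exon length exceeded that of ITGB1 in untreated cells of both lines. Its mean ratios were 1.33 in DND-41 and 5.64 in MOLT-4. With ACBI-1 these were 0.776 and 4.41, so that by this measure ITGA4 lay below ITGB1 in both treated DND-41 libraries and above it in both treated MOLT-4 libraries. Exon length here joins all annotated exons of a gene, so the side of 1 on which a ratio near 1 falls depends on that choice.

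**Figure D2:**
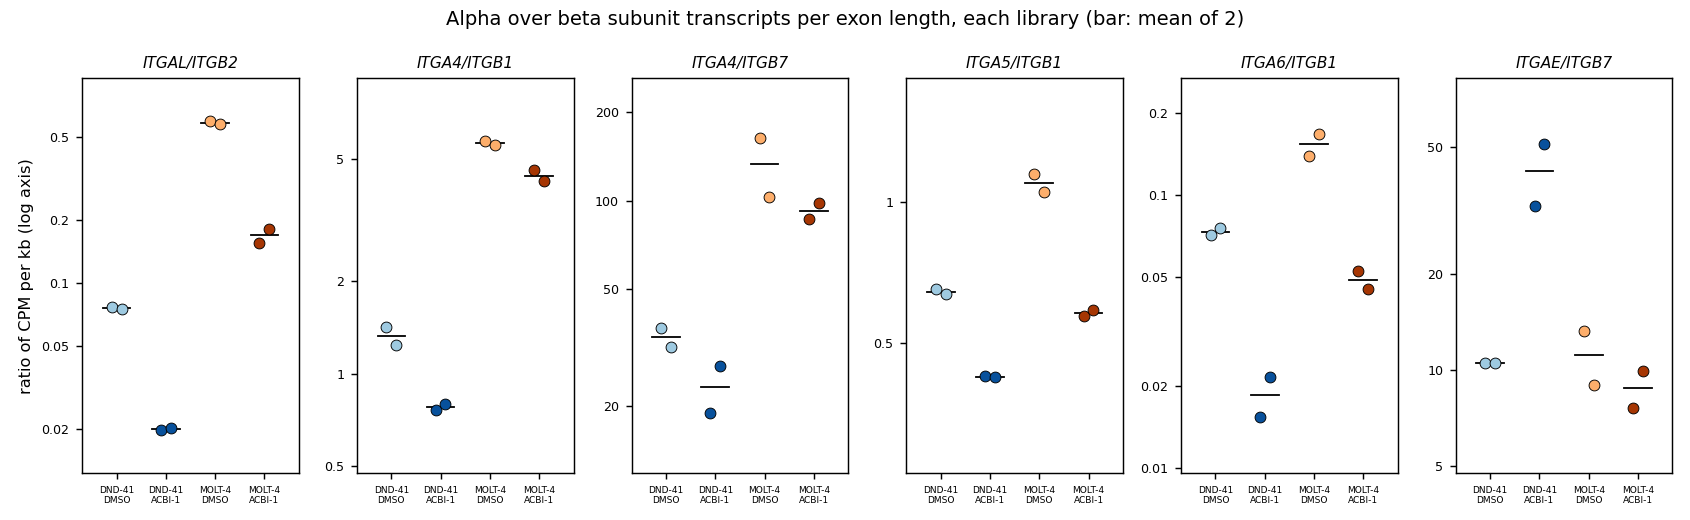
Ratio of alpha to beta subunit CPM per kilobase of exon in each library, on a log axis whose range differs between the 6 panels, with a bar for the mean of 2. ITGAL/ITGB2 drops from 0.0769 and 0.0751 to 0.0197 and 0.0203 in DND-41, while ITGAE/ITGB7 is highest in treated DND-41, at 32.7 and 51.3.

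ITGAE (ENSG00000083457), the CD103 subunit that holds T cells in epithelium, went the other way in DND-41. It rose from 29.6 and 30.1 CPM with DMSO to 79.0 and 87.0 CPM with ACBI-1, 2.81-fold (1.49 ± 0.07 on the log2 scale, adjusted p = 9.52e-10). In MOLT-4 it fell from 35.2 and 38.6 to 28.2 and 30.1 CPM (-0.34 ± 0.08, adjusted p = 0.00103). Per exon length ITGAE thereby passed from sixth to the third of the 10 genes in DND-41, at 12.5 CPM per kilobase, below ITGB2 and ICAM3. Its only known partner, ITGB7, stayed at 1.14 to 1.93 CPM in the same libraries. HASPIN, a mitotic histone kinase gene carried as GSG2 in the files, lies on the opposite strand within ITGAE and shares 427 of its 6657 exon bases. GSG2 also rose in DND-41, from 40.5 and 37.0 to 69.6 and 69.2 CPM (0.85 ± 0.07, adjusted p = 1.52e-07), and in MOLT-4 it was at 21.2 and 22.0 CPM with DMSO and 22.1 and 22.0 CPM with ACBI-1 (0.03 ± 0.08, adjusted p = 0.813). The part of the shared bases in the ITGAE counts was not tested.

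**Figure D3:**
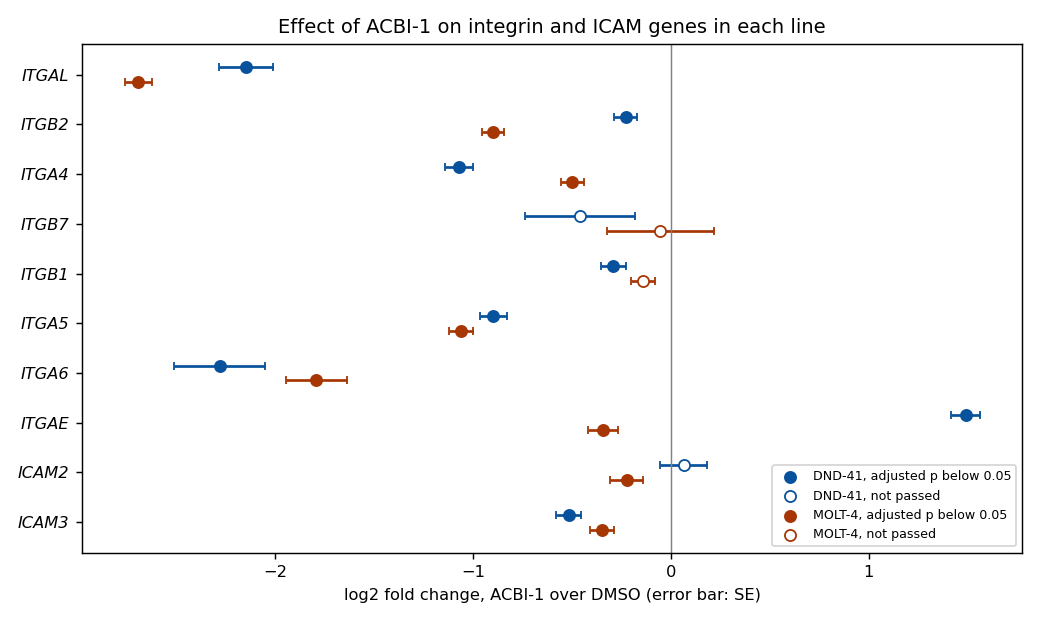
Log2 fold change of ACBI-1 over DMSO for each gene in DND-41 (blue) and MOLT-4 (brown), with the SE as the bar, filled where the edgeR adjusted p was below 0.05 and open where it was not. ITGAE stands at 1.49 in DND-41 and -0.34 in MOLT-4, and the other filled points are all below 0.

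Whether the lines responded differently was tested as the interaction term of a fit to all 8 libraries, and 4 of the 10 genes passed. As MOLT-4 minus DND-41, 1 difference was higher and 3 were lower, where 7.18% of all 15498 genes tested were called higher and 6.17% lower. ITGAE differed most, by -1.82 ± 0.10 on the log2 scale (adjusted p = 1.21e-09), and stood at rank 12 by p among the 15498 genes. ITGB2 fell more in MOLT-4, by -0.65 ± 0.08 (adjusted p = 8.73e-06), and ITGA4 fell more in DND-41, with a difference of 0.59 ± 0.09 (adjusted p = 0.000222). These 2 subunits thus differed in opposite directions, beta 2 falling further in the line with more of it and alpha 4 falling further in the line with less of it. ITGAL also fell more in MOLT-4, by -0.53 ± 0.16 (adjusted p = 0.0342), but that call was lost with DESeq2 (adjusted p = 0.0607) and when any 1 of 7 of the 8 libraries was left out, with adjusted p from 0.0578 to 0.188.
The remaining 6 differences did not pass. Their 95% intervals, on the log2 scale, ran from -0.33 to 0.04 for ITGA5, from -0.01 to 0.34 for ITGB1, from 0.01 to 0.36 for ICAM3 before adjustment, from -0.59 to 0.05 for ICAM2, from -0.11 to 1.124 for ITGA6 and from -0.41 to 1.25 for ITGB7. With library size as the only scaling the median of all genes shifts by -0.12, and the split of calls over all genes changes from 1112 higher and 956 lower to 499 and 1411, while the 4 genes keep their signs and calls. For the effect in MOLT-4 alone that scaling changes the split over all genes from 2948 higher and 3477 lower to 1781 and 3922.

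The genes whose profile over the 8 libraries lay closest were sought among the 9680 genes whose mean reached 5 CPM, by the root mean square distance between centred log2(CPM + 1) values, where 0 is the same profile. For ITGB2 the closest was MANF, a secreted factor of the endoplasmic reticulum stress response, at 0.0572, followed by BCL7A, a BAF complex subunit, at 0.102 and ZNF302 at 0.103. For ITGA4 these were MED12L at 0.0917, FAM134B at 0.0939 and ASB13 at 0.120. ITGAL, which spanned 2.92 to 170 CPM, had no neighbour as close, with CCDC88B at 0.344, SYTL1 at 0.414 and PTPN3 at 0.462. The distance is not scaled by a gene's range, so genes with wide ranges tend to lie further from others. The group means of MANF were 70.8 and 57.3 CPM in DND-41 and 108 and 56.7 CPM in MOLT-4, with DMSO and ACBI-1 in turn. Its nearly equal level in treated cells of both lines follows from its choice as the profile closest to ITGB2. This likeness describes 8 libraries in 4 groups.

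The other genes of the pathway were taken from 6 lists of 63 genes in all. In DND-41, 42 of them passed the filter on low counts, of which 7 rose, 19 fell and 16 did not pass, with a median log2 fold change of -0.25, where 20.0% of all genes tested rose and 23.2% fell. In MOLT-4, 43 passed the filter, of which 10 rose, 17 fell and 16 did not pass, with a median of -0.23, where 20.7% of all genes rose and 24.4% fell. Among the other alpha subunits, ITGA1, the collagen receptor subunit CD49a, was the 1 called riser in both lines. It went from 60.2 and 54.6 to 101 and 115 CPM in DND-41 (0.93 ± 0.08, adjusted p = 1.79e-07) and from 11.1 and 12.02 to 17.8 and 17.2 CPM in MOLT-4 (0.59 ± 0.10, adjusted p = 7.58e-05). The myeloid subunits ITGAM and ITGAX, which also pair with ITGB2, were at a mean of at most 0.155 CPM in both lines. Of 3 other beta subunits tested in DND-41, 1 rose and 2 fell. ITGB5 rose (1.19 ± 0.40, adjusted p = 0.0278) and ITGB3 fell (-1.63 ± 0.53, adjusted p = 0.0221), both from few counts. Their mean levels over the line were 0.706 and 0.393 CPM. ITGB4, the laminin-receptor partner of ITGA6, fell from 6.59 and 6.33 to 3.64 and 3.61 CPM (-0.82 ± 0.16, adjusted p = 0.000718).

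Fibronectin itself, FN1, is a ligand of the receptors that hold ITGA4 and ITGA5. It fell from 10.5 and 10.1 to 2.82 and 3.06 CPM in DND-41 (-1.80 ± 0.15, adjusted p = 2.13e-07), while the log2 fold change in a fit of all 8 libraries was -1.81 ± 1.40 and not called (adjusted p = 0.340). In MOLT-4 it was at 3.15 and 152 CPM with DMSO and 1.22 and 30.4 CPM with ACBI-1. It was high in the same replicate 2 libraries as COL1A1, and the called fall of 2.32 ± 0.85 on the log2 scale (adjusted p = 0.0328) turned to a log2 fold change of 2.32 without DMSO replicate 2. Without both replicate 2 libraries it was -1.38 (adjusted p = 0.00731).

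Of the genes that open integrins from inside the cell, 13 of 15 were tested in each line. In DND-41, 3 rose and 6 fell, where 20.0% of all genes tested rose and 23.2% fell. In MOLT-4, 3 rose and 7 fell, where 20.7% of all genes tested rose and 24.4% fell. In both lines the rises were near the share over all genes. FERMT3, kindlin-3, the kindlin of blood cells, fell in both lines, from 190 and 181 to 81.3 and 78.0 CPM in DND-41 (-1.20 ± 0.06, adjusted p = 1.56e-09) and from 174 and 169 to 79.7 and 76.4 CPM in MOLT-4 (-1.14 ± 0.05, adjusted p = 1.56e-12). FERMT2, kindlin-2, fell in DND-41 from 48.1 and 46.3 to 8.85 and 8.68 CPM (-2.42 ± 0.08, adjusted p = 5.77e-11). In MOLT-4 it fell from 8.35 and 9.09 to 0.688 and 0.661 CPM (-3.68 ± 0.22, adjusted p = 5.24e-11), a difference between lines of -1.25 ± 0.24 (adjusted p = 0.0016). RASGRP2, the exchange factor that switches on RAP1, fell in MOLT-4 from 31.4 and 34.3 to 4.60 and 4.46 CPM (-2.86 ± 0.11, adjusted p = 6.49e-14). In DND-41 its log2 fold change was -0.04 ± 0.07 (adjusted p = 0.675), and the difference between lines was -2.80 ± 0.13 (adjusted p = 1.08e-10). The kindlins and the exchange factor are all on the list of genes that open integrins, and integrin binding was not measured.
RASSF5, the RAP1 effector RAPL that binds the alpha L tail, rose in DND-41 from 143 and 148 to 320 and 319 CPM (1.15 ± 0.06, adjusted p = 1.3e-09). In MOLT-4 it rose slightly (0.16 ± 0.05, adjusted p = 0.0208), a difference between lines of -0.97 ± 0.08 (adjusted p = 1.03e-07). CYTH1, cytohesin-1, which binds the beta 2 tail, rose in DND-41 (0.65 ± 0.07, adjusted p = 1.83e-06) and fell in MOLT-4 (-0.60 ± 0.05, adjusted p = 1.36e-08), a difference between lines of -1.24 ± 0.08 (adjusted p = 6.61e-09). TLN2, a talin at a mean of 4.45 CPM in DND-41 and 19.5 CPM in MOLT-4, rose in both lines. Its log2 fold changes were 0.55 ± 0.20 in DND-41 (adjusted p = 0.0404) and 0.52 ± 0.09 in MOLT-4. TLN1, the talin with far more transcript here, was at 575 CPM in DND-41 and was not called (0.04 ± 0.06, adjusted p = 0.665). In MOLT-4 TLN1 was at 494 CPM and fell (-0.23 ± 0.06, adjusted p = 0.00246). RAP1A rose in MOLT-4 (0.26 ± 0.08) and was not called in DND-41 (-0.04 ± 0.08, adjusted p = 0.728). The MOLT-4 call on RAP1A was lost with DESeq2 (adjusted p = 0.157). RAP1B, on the same list, had more transcript, at a mean of 50.6 CPM in MOLT-4 against 26.9 CPM for RAP1A. It fell in MOLT-4 (-0.295 ± 0.07, adjusted p = 0.00171) and in DND-41 (-0.24 ± 0.07, adjusted p = 0.0124).

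Of the 7 genes that keep integrins closed or counter RAP1, 4 of 6 tested fell in DND-41, where 23.2% of all genes fell. In MOLT-4, 2 rose and 3 fell of 7, where 20.7% of all genes rose and 24.4% fell. FLNA, filamin A, which competes with talin for the beta tail, fell from 1780 and 1909 to 649 and 695 CPM in DND-41 (-1.44 ± 0.07, adjusted p = 9.72e-10) and from 1055 and 1091 to 422 and 377 CPM in MOLT-4 (-1.43 ± 0.07, adjusted p = 2.51e-12). RASA3, a GTPase-activating protein for RAP1, rose in MOLT-4 from 59.5 and 64.7 to 153 and 154 CPM (1.30 ± 0.06, adjusted p = 5.58e-13) and fell in DND-41 (-0.42 ± 0.07, adjusted p = 0.000248). The difference between lines was 1.74 ± 0.09 (adjusted p = 4.34e-10). In DND-41 no inhibitor was called higher, and in MOLT-4 the inhibitors, like the activators in both lines, held calls in both directions. DOK1 fell in both lines (-0.92 ± 0.09 in DND-41 and -1.09 ± 0.09 in MOLT-4), RAP1GAP fell in MOLT-4 (-1.39 ± 0.16), and ITGB1BP1, which encodes the beta 1 inhibitor ICAP-1, rose in MOLT-4 (0.29 ± 0.06).

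Downstream of bound integrins, 14 genes of signalling and of the link to actin were listed. Of 10 tested in DND-41, 2 rose and 5 fell, and of 11 tested in MOLT-4, 4 rose and 4 fell. Over all genes 20.0% rose and 23.2% fell in DND-41, and 20.7% and 24.4% in MOLT-4. PTK2B, the kinase PYK2, fell in both lines, from 38.1 and 39.8 to 18.0 and 19.5 CPM in DND-41 (-1.04 ± 0.08, adjusted p = 8.99e-08) and from 120 and 117 to 32.6 and 28.2 CPM in MOLT-4 (-1.97 ± 0.07, adjusted p = 2.31e-14). Its relative PTK2, focal adhesion kinase, rose in MOLT-4 from 1.52 and 1.89 to 14.2 and 12.8 CPM (2.98 ± 0.16, adjusted p = 1.46e-11) and was at or below 0.0474 CPM in DND-41. PYK2 is the form of this kinase pair usual in blood cells. The scaffold NEDD9 fell in both lines (-0.90 ± 0.12 in DND-41 and -1.25 ± 0.11 in MOLT-4), VCL (vinculin) rose in MOLT-4 (0.54 ± 0.09), and the adaptors CRKL and CRK were called slightly higher in DND-41 (0.27 ± 0.06 and 0.19 ± 0.07) and in MOLT-4 (0.19 ± 0.05 and 0.23 ± 0.08). The call on CRK in DND-41 had an adjusted p of 0.0469 and was lost with DESeq2 (adjusted p = 0.254).

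**Figure D4:**
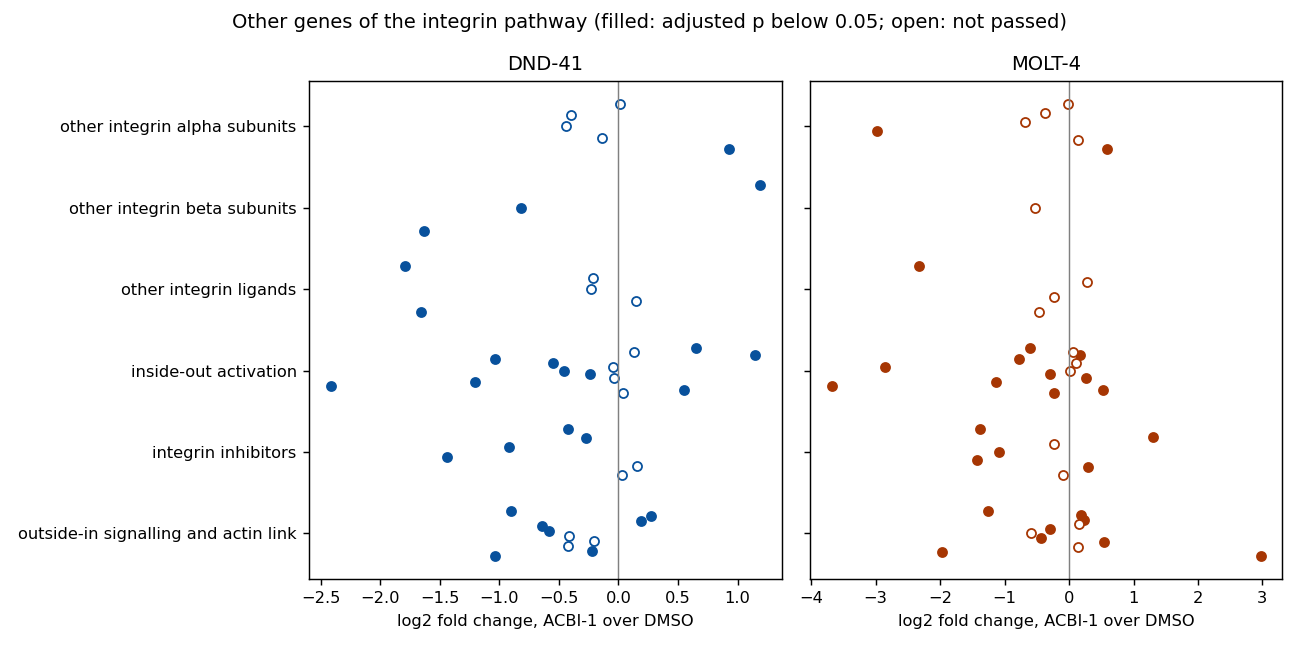
Log2 fold change of ACBI-1 over DMSO for the tested genes of the 6 pathway lists in each line, 1 point per gene, filled where the edgeR adjusted p was below 0.05, with a horizontal axis that differs between the panels. ICAM1 is left out of the MOLT-4 panel because both treated libraries hold 0 counts; FERMT2 lies at -2.42 in DND-41 and PTK2 at 2.98 in MOLT-4.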

How the data were processed

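Strand-specific paired-end 100 bp reads were aligned and counted by the authors. The submitters' processing notes name STAR 2.5.2a, featureCounts, DESeq2 1.12.4 and the hg19 build, without their order. Neither the annotation nor the strand setting is given in the sources used here. The 2 deposited count tables hold unnormalized whole-number counts per gene. The authors also deposited, per the file headers, a table for each line with log2 fold changes, p-values, adjusted p-values and score columns for a mean normalized count and a test statistic.

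The 10 genes, the pathway and marker lists and the tests were chosen with earlier results of these data known. Groups come from the labels, and all count columns were mapped. In each line, genes were filtered (filterByExpr, minimum count 10), scaled by TMM and tested with edgeR 4.0.16 (R 4.3.3, quasi-likelihood F test, treatment as the only term), with Benjamini-Hochberg adjustment over all genes tested and a threshold of 0.05. The difference between lines and the DMSO contrast come from 1 fit of all 8 libraries. SEs were computed as the size of a log2 fold change divided by the root of its F statistic. CPM use effective library sizes of all 8 libraries. Exon lengths and overlaps were taken by gene identifier from GENCODE 29 (GRCh38), a build other than the files', and promoters from RefSeq. Group means are of n = 2. All 10 genes are named. Pathway genes are named by rule, as the 2 largest called rises and falls per list and line at a mean of 5 CPM or more, and profile neighbours are given for ITGAL, ITGB2 and ITGA4. Genes outside these rules are marker genes, genes overlapping a member's exons, and ICAM1, ITGA3, ITGAM, ITGAX, ITGB3, ITGB5, RAP1B and TLN1, chosen after their values were seen. Alternatives were other scalings, filters and thresholds, DESeq2 1.42.0, a replicate block, other sets of libraries and leaving out each library. The fits were also run on simulated counts in which far fewer genes changed than were called here. That run does not check the scaling under so broad a response, and its outcome is not given here.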

Additional observations from a re-analysis of the deposited data

Results flagged for a closer look

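The response to ACBI-1 differed between the lines for 4 of the 10 genes by the interaction test, where 7.18% of all genes tested were called higher and 6.17% lower, given as MOLT-4 minus DND-41 on the log2 scale with edgeR adjusted p. ITGAE had the largest difference of the 10, -1.82 (adjusted p = 1.21e-09), with both treated DND-41 libraries above and both treated MOLT-4 libraries below the controls of their line. ITGB2 differed by -0.65 (adjusted p = 8.73e-06) and ITGA4 by 0.59 (adjusted p = 0.000222), and both were lower with ACBI-1 in all libraries of both lines. ITGAL differed by -0.53 (adjusted p = 0.0342), a call lost with DESeq2 (adjusted p = 0.0607) and without any 1 of 7 of the 8 libraries. GSG2, which overlaps ITGAE on the opposite strand, differed in the same direction, by -0.81 (adjusted p = 1.86e-05), and its part in the ITGAE counts was not tested.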

How the results depend on the processing

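Counts of called genes among the 10 stayed within 1.5 times their main value under all alternatives run, at 6 or 7 lower and 1 higher in DND-41, 7 to 9 lower and 0 higher in MOLT-4, 2 or 3 lower and 1 higher for the difference between lines, and 6 or 8 higher and 0 lower between untreated lines. Of the single values of the 10 genes, 536 kept direction and call, 20 lost the call, 4 gained it and 6 changed sign. None of the sign changes concerned a called value. In DND-41, ICAM2 went to -0.063 without ACBI-1 replicate 1 (adjusted p = 0.741), in a leave-one-out range from -0.063 to 0.18. In MOLT-4, ITGB7 had a leave-one-out range from -0.34 to 0.35, with 0.090 without ACBI-1 replicate 2 and 0.35 without DMSO replicate 2, and went to 0.47 without both replicate 2 libraries. Between untreated lines, ITGB7 went to -0.088 without MOLT-4 DMSO replicate 2, in a leave-one-out range from -0.088 to 0.59, and ITGB1 to -0.032 with library size as the only scaling. Outside the 10, FN1 in MOLT-4 went to 2.32 without DMSO replicate 2 (adjusted p = 4.04e-35), in a leave-one-out range from -5.99 to 2.32. ITGB1 in MOLT-4 gained a call with library size alone (adjusted p = 0.0325), a stricter filter (0.0366), the replicate block (0.044) and without DMSO replicate 1 (0.0482). ICAM2 in MOLT-4 also lost its call without a filter (adjusted p = 0.0739), in a fit of all 8 libraries (0.0799), without DMSO replicate 2 (0.0905), without both replicate 2 libraries (0.701) and at a threshold of 0.01, which also ended the ITGAL difference between lines. RAP1A and ITGB1BP1 in MOLT-4 lost their calls with library size alone (adjusted p = 0.132 and 0.0535), and RAP1A also without DMSO replicate 2 (0.0822). Same-numbered libraries deviated together with correlations of 0.123 in DND-41 and 0.209 in MOLT-4. With 2 pairs a line the numbers are not shown to pair the libraries. With the replicate block 7 of the 10 fell in DND-41 and 9 in MOLT-4, the difference kept 1 higher and 3 lower, and the untreated lines 8 higher and 0 lower. Over all genes the block called 3297 higher and 3579 lower in DND-41, 3217 and 3703 in MOLT-4, 1398 and 1181 for the difference, and 5295 and 4946 between untreated lines. Counts over all genes moved more than 1.5 times in several settings. Rises in DND-41 went from 2807 to 1722 with DESeq2, 1838 at 0.01, and 1745 and 1817 without DMSO replicates 1 and 2. Rises in MOLT-4 went from 2948 to 1781 with library size alone, 1765 with DESeq2 and 1357 without both replicate 2 libraries (jointly fitted with DND-41), and falls from 3477 to 2267 and 2232 in the last 2 of these. Higher differences went from 1112 to 499 with library size alone, 669 with DESeq2, 619 at 0.01, 730 without DND-41 DMSO replicate 2, 699 without MOLT-4 DMSO replicate 2 and 440 without both MOLT-4 replicate 2 libraries. Lower differences went from 956 to 559 at 0.01, 634 without DND-41 DMSO replicate 1, 621 without MOLT-4 ACBI-1 replicate 1 and 504 without both. The cause was not tested. Where a library is left out, the lone library of its group is assumed to vary like the others. Summing identifiers of a symbol was not run, since each of the 10 symbols has 1. Depth limits ITGB7 and treated ITGA6 in DND-41 most, at 25 to 40 and 19 to 27 counts.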

Other observations

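ITGA3, a laminin-receptor subunit that pairs with ITGB1, had 53 and 168 counts with DMSO and 3 and 23 with ACBI-1 in MOLT-4, in replicates 1 and 2 in turn, and at most 7 counts in any DND-41 library. Like FN1 and COL1A1 it was highest in the replicate 2 library of each MOLT-4 group. Its fitted log2 fold change in MOLT-4 was -2.99 ± 0.51 (edgeR adjusted p = 7.56e-05).

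The authors' deposited table for DND-41 codes fold changes as ACBI-1 over DMSO, since 100% of the 6056 genes called here have the same sign in it. The authors' deposited table for MOLT-4 codes them the other way round, with 0% of the 6425 called genes on the same sign. In the authors' deposited table for DND-41, ITGAL is at -2.15 and ITGAE at 1.49 on the log2 scale. In the authors' deposited table for MOLT-4, ITGAL is at 2.69 and ITGAE at 0.34, which are falls with ACBI-1. Among the 10 genes, 1 positive and 7 negative values have an adjusted p below 0.05 in the authors' deposited table for DND-41, and 7 positive and 0 negative in that for MOLT-4. In the latter, ICAM2 has an adjusted p of 0.292.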
